A study of Mus musculus with 14 samples.

Results

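The genes of the common gamma chain receptor system and Prkdc were followed in RNA from mouse tumours. The 10 genes were taken from a fixed list by symbol and were all found among the 51789 genes of the deposited count table: Il2rg, Il2rb, Il2ra, Il7r, Il4ra, Il21r, Il15, Il15ra, Jak3 and Prkdc. All 10 passed the filter on low counts, which kept 17294 genes.

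The gamma chain encoded by Il2rg is a shared subunit of the receptors for interleukins 2, 4, 7, 9, 15 and 21, and each receptor adds a private chain that gives it its ligand. JAK3 binds the gamma chain and passes the signal to STAT transcription factors, and loss of Il2rg or Jak3 severely impairs the development of lymphocytes in mice. Prkdc encodes the catalytic subunit of DNA-dependent protein kinase, which joins broken DNA ends and is needed for V(D)J recombination of antigen receptors in T and B cells. The mouse strain written NSG carries the scid allele of Prkdc and a null allele of Il2rg. Whether the label NGS stands for that strain is not given in the sources used here, and no immune status was assumed. The scid allele is a point mutation, and counts per gene do not show at which base a read differs from the reference.

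RNA came from whole tumours of mice of the strains labelled NGS mouse and C57BI/6 mouse, given vehicle or ACSS2i, an inhibitor of acetyl-CoA synthetase 2, which makes acetyl-CoA from acetate. There were 3 NGS vehicle, 3 NGS ACSS2i, 4 C57BI6 vehicle and 4 C57BI6 ACSS2i libraries, and the series title names triple negative breast cancer. The tumour cell line, any alleles of the hosts beyond the strain names, the age of the mice, the dose and the length of treatment are not given in the sources used here. Also, the design text names different Bmal1 status, which no label assigns to a library. No label says that replicates are separate animals, so the p-values measure only the spread between these samples, which may be technical.

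Depth followed the host: the 6 NGS libraries held 2.85 to 4.70 M counts and the 8 C57BI6 libraries 17.6 to 20.3 M. Marker genes of macrophages were abundant in every library (a sum of 2613 to 4662 CPM, counts scaled to the library total). The T cell markers Cd3e, Cd3g, Cd6 and Zap70 had 0 counts in all 6 NGS libraries, as did 5 of 13 natural killer markers (Ncr1, Klrb1c, Klre1, Gzma and Gzmb). Some of these were low in C57BI6 vehicle too, such as Ncr1 (0.107 to 0.477 CPM) and Cd3g (0 to 0.695 CPM), whereas Klrb1c reached 0.907 to 2.14 CPM. In a single NGS vehicle library 3 counts are 0.638 to 0.713 CPM, and over the 3 libraries together they are 0.226 CPM. The ranges of Ncr1 and Cd3g span this group floor, so 0 counts of such low genes do not show absence. Cd3e (0.265 to 1.12 CPM) and Klrb1c lay above the group floor in every C57BI6 vehicle library. Other markers on these lists were counted in NGS, such as Thy1 (41.0 to 68.2 CPM in NGS vehicle, 10.9 to 21.8 CPM in C57BI6 vehicle) and Cd4 (0.638 to 2.85 and 0.567 to 1.30 CPM). The mean summed level of the T cell list was 58.4 CPM in NGS vehicle and 44.8 CPM in C57BI6 vehicle, and that of the natural killer list 70.9 and 73.1 CPM. Single genes dominated these sums: Thy1 in NGS vehicle (mean of 53.1 CPM), and Klra4 in both vehicle groups (68.7 and 54.2 CPM). By edgeR at an adjusted p under 0.05, 11 of 18 T cell markers were higher and 1 lower in C57BI6 vehicle. Of the 13 natural killer markers, 9 were higher and 0 lower, where 32.8% of all genes were called. Each of the 18 T cell and 13 natural killer markers was counted in both C57BI6 groups, at their greater depth. Muscle markers summed to between 5.33 and 6869 CPM, with high and low libraries within groups, and skin markers reached 1312 CPM in NGS vehicle 1 and 571 CPM in NGS ACSS2i 1. Of the C57BI6 libraries, ACSS2i 3, vehicle 1 and ACSS2i 1 had the highest muscle sums.

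Promoter windows were available for 7 of the 10 genes, 8 windows in all, from RefSeq (GRCm38.p6). The windows of the shared chain and of the inducible alpha chain of the interleukin 2 receptor are shown for these 2 chains of one receptor, whose levels are described below. Each runs 5′ to 3′ over the 250 bases before the RefSeq start, on the strand of the gene. The Il2rg window is chrX:101268256-101268505 on the minus strand, and the Il2ra window is chr2:11642542-11642791 on the plus strand. Capitals mark a match to CCGGAA, one of the sequences bound by ETS factors. Shorter or other ETS sequences were not searched for.
Il2rg: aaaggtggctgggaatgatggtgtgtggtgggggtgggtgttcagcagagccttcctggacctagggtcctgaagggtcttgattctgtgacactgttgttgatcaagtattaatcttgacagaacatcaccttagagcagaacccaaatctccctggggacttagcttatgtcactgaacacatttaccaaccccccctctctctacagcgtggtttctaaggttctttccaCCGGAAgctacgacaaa
Il2ra: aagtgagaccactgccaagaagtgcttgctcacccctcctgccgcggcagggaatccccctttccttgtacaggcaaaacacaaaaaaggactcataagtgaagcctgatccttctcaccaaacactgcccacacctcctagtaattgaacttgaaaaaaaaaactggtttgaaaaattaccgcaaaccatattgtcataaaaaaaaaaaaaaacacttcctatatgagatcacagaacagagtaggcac
The search covered CCGGAA and the STAT motif TTCNNNGAA on both strands, which can overlap where the letters of one run into the other. Of 32851 RefSeq windows of this length, 12.0% held CCGGAA and 7.02% the STAT motif. The Il2rg window held the ETS letters only, and the Il2ra window neither motif in these letters.

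Il2rg, the shared chain, was counted in every library of both hosts and was far lower in NGS tumours. Il2rg (ENSMUSG00000031304, protein-coding, GRCm38 chromosome X, 101264378 to 101268255) had 13, 13 and 5 counts in NGS vehicle, which is 2.77, 3.00 and 1.19 CPM. In NGS ACSS2i it had 23, 40 and 34 counts, or 6.60, 14.1 and 8.43 CPM. In C57BI6 vehicle it stood at 24.9, 15.4, 20.0 and 25.0 CPM, from 291 to 465 counts a library. In C57BI6 ACSS2i it stood at 42.8, 66.2, 41.4 and 52.8 CPM. The 4 groups did not overlap with one another, and their means ordered NGS vehicle (2.32 ± 0.984, SD, n = 3), NGS ACSS2i (9.69 ± 3.89, n = 3), C57BI6 vehicle (21.3 ± 4.57, n = 4) and C57BI6 ACSS2i (50.8 ± 11.4, n = 4). The log2 fold change of C57BI6 over NGS was 3.33 ± 0.34 (SE, edgeR quasi-likelihood test, adjusted p = 2.54e-06) in vehicle and 2.54 ± 0.28 (adjusted p = 7.30e-06) in ACSS2i. Both calls held in every alternative fit that was run.

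**Figure D1:**
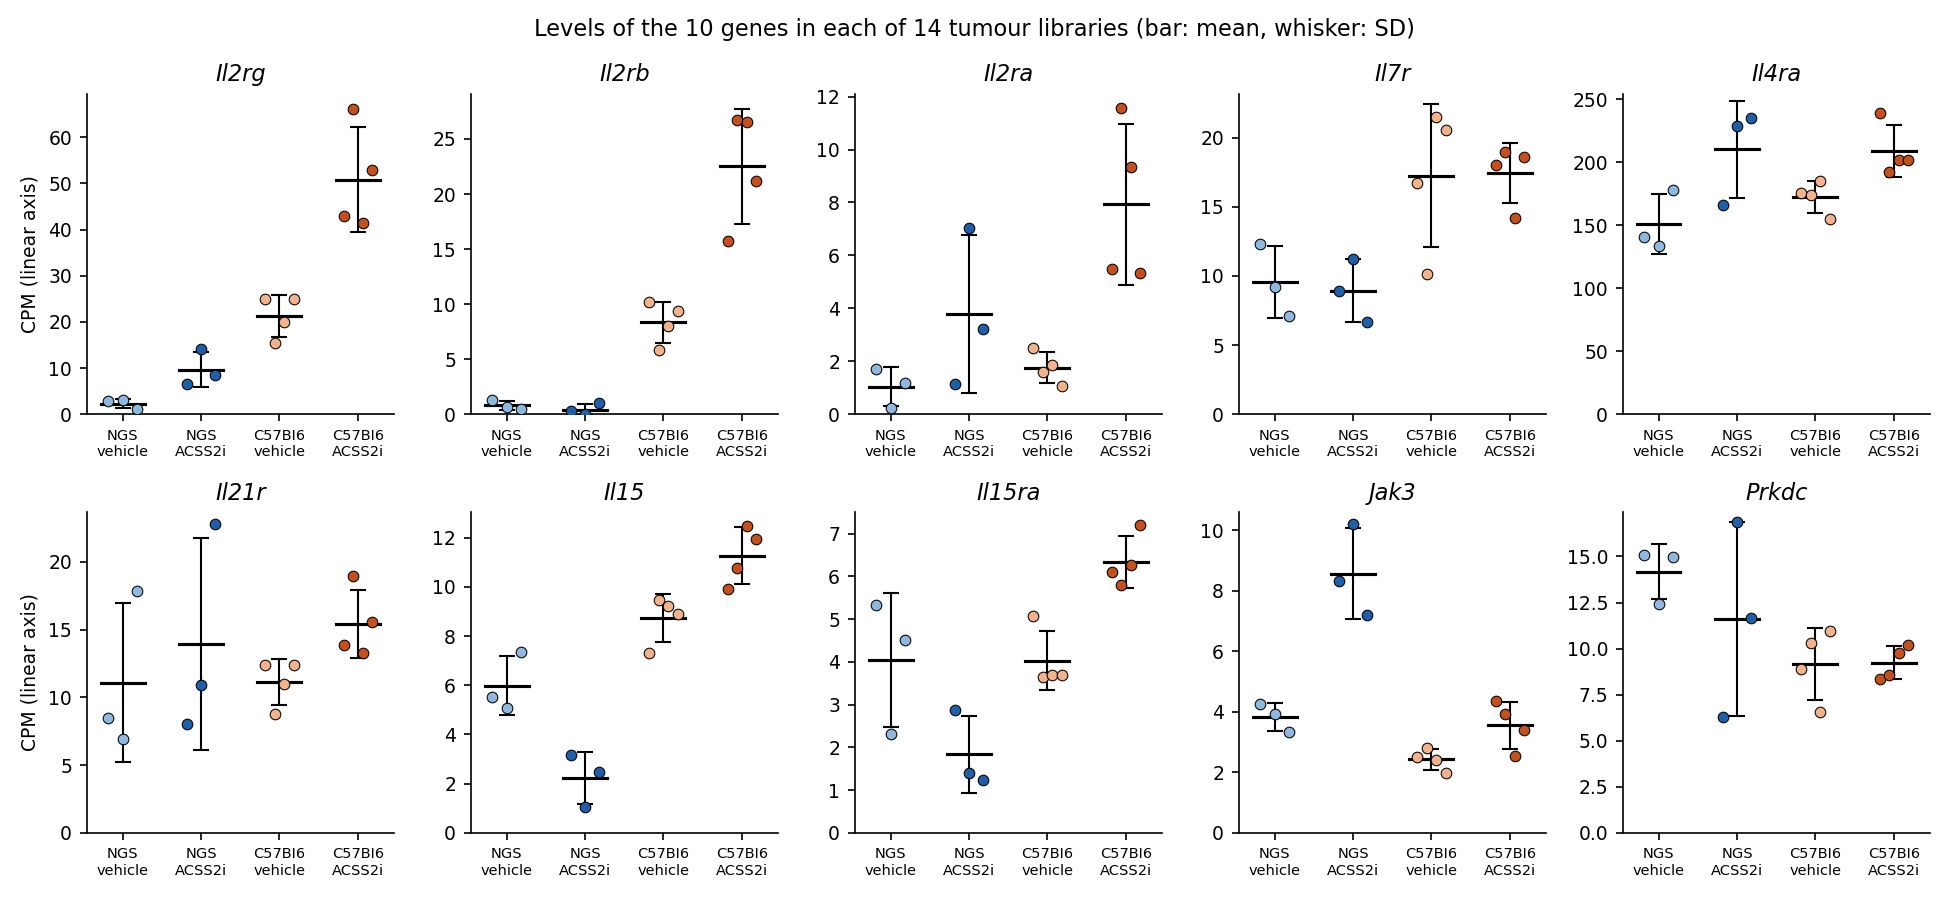
Level of each of the 10 genes in CPM (linear axes starting at 0) in each library, with 3 NGS vehicle, 3 NGS ACSS2i, 4 C57BI6 vehicle and 4 C57BI6 ACSS2i libraries as points, the group mean as a bar and the SD as whiskers. Il2rg is higher in each group than in the one to its left, from a mean of 2.32 to 50.8, without overlap, Il2rb is near 0 in NGS, Il15 is lowest in NGS ACSS2i, and Prkdc is present in every library.

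The lower depth of the NGS libraries still allowed Il2rg to be counted. At the mean C57BI6 level of the same treatment, the NGS vehicle libraries would have held 89.7 to 100.2 counts of Il2rg, against 5 to 13 observed, and the NGS ACSS2i libraries 145 to 205, against 23 to 40. In bulk tissue, fewer cells of a type and less RNA per cell cannot be told apart. The level was also read against Ptprc, the CD45 gene of all leukocytes. This ratio cannot separate them either, because a smaller share of Il2rg-expressing cells among the leukocytes lowers it as less RNA per cell does. Nor does the ratio separate the RNA of host cells from that of tumour cells. Ptprc ran from 97.2 to 105 CPM in NGS vehicle and 121 to 176 in NGS ACSS2i. In C57BI6 it ran from 93.9 to 125 CPM in vehicle and 135 to 210 in ACSS2i. Per 100 counts of Ptprc, the libraries held 1.22 to 3.08 counts of Il2rg in NGS vehicle and 5.46 to 8.0 in NGS ACSS2i. They held 16.4 to 20.9 in C57BI6 vehicle and 26.2 to 31.7 in C57BI6 ACSS2i. With both treatments pooled, NGS averaged 4.38 ± 2.51 (SD, n = 6) and C57BI6 24.7 ± 6.07 (n = 8), so each SD includes the treatment difference. The hosts differed by 20.3 counts per 100 (two-sided exact permutation test within treatment, p = 0.000816, the smallest that 1225 arrangements can give). The host difference had the same p with the macrophage marker list as denominator (0.746 counts of Il2rg per 100 counts of the list).

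Il2rg also rose with ACSS2i in both hosts. In C57BI6 the log2 fold change over vehicle was 1.19 ± 0.22 (SE, edgeR adjusted p = 0.0349), and in NGS it was 1.98 ± 0.39 (adjusted p = 0.0182). The change in C57BI6 minus that in NGS was -0.79 ± 0.45 (adjusted p = 0.442), with a 95% interval that includes 0. Relative to Ptprc, Il2rg was higher by 10.6 counts per 100 in C57BI6 ACSS2i than in vehicle (two-sided exact permutation test, p = 0.0286, the smallest possible). In NGS it was higher by 4.15 counts per 100 (exact p = 0.1, the smallest that 3 libraries against 3 allow, so 0.05 cannot be reached). Both the pan-leukocyte sum (470 to 558 CPM in C57BI6 vehicle and 709 to 928 in ACSS2i; 481 to 617 and 659 to 857 in NGS) and the T cell sum in C57BI6 (37.5 to 57.4 and 77.3 to 156) moved with Il2rg, and their part in it was not tested. The T cell sum in NGS went the other way, from 45.2 to 72.7 CPM in vehicle to 22.8 to 39.3 in ACSS2i. Thy1, which stromal cells also express, made up most of that sum in NGS (means of 53.1 and 22.6 CPM). The C57BI6 call was lost without NGS ACSS2i 3, C57BI6 vehicle 2, 3 or 4, or C57BI6 ACSS2i 1, 2 or 4 (adjusted p up to 0.150), and without the 3 muscle-rich C57BI6 libraries (0.0891). The NGS call of Il2rg was lost without NGS vehicle 1 or 3 or NGS ACSS2i 2 (up to 0.0684), with limma voom (0.237) and with only the NGS groups fitted (0.169).

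**Figure D2:**
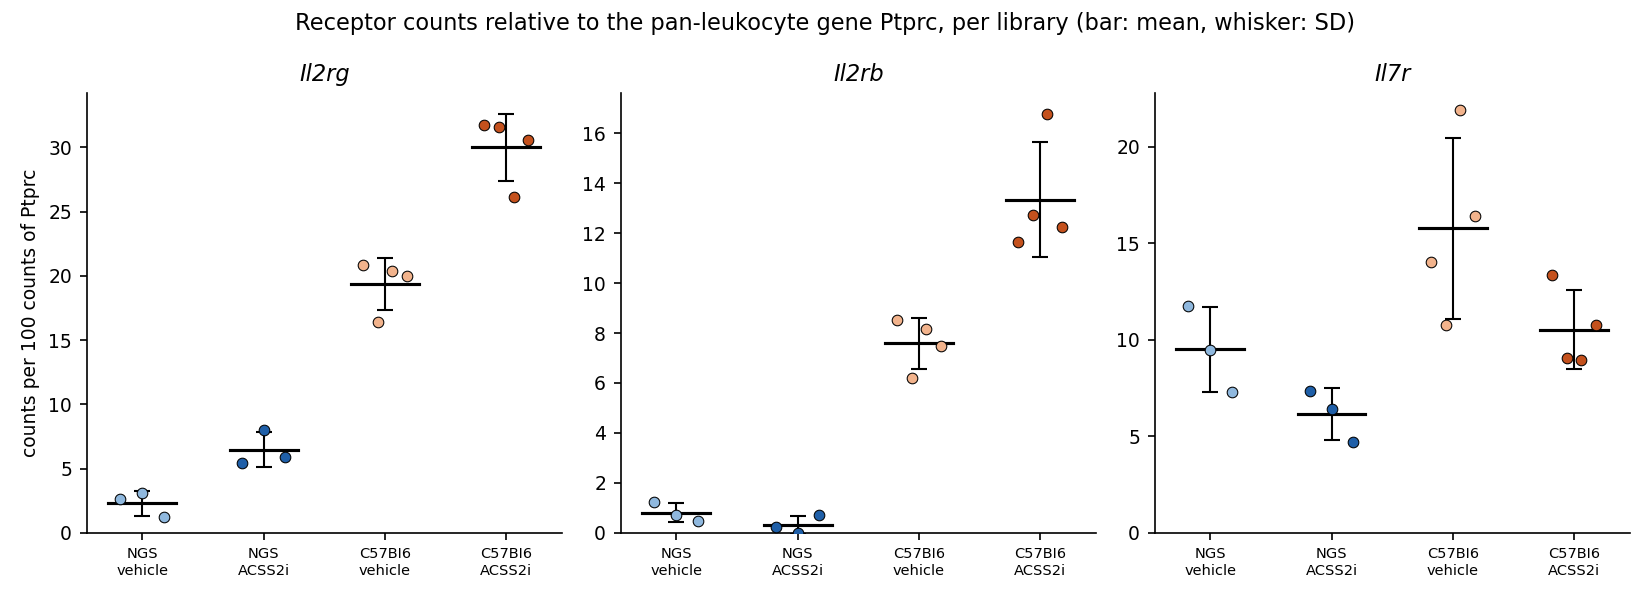
Counts of Il2rg, Il2rb and Il7r per 100 counts of Ptprc in each library (points, linear axes from 0), with the group mean (bar) and SD (whiskers) for 3 NGS vehicle, 3 NGS ACSS2i, 4 C57BI6 vehicle and 4 C57BI6 ACSS2i libraries. Il2rg stays apart between all 4 groups (means of 2.31, 6.46, 19.4 and 30.0), whereas Il7r relative to Ptprc is highest in C57BI6 vehicle.

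Il2rb, the signalling beta chain shared by the receptors for interleukins 2 and 15, was close to absent from NGS tumours. Il2rb (ENSMUSG00000068227, protein-coding, chromosome 15, 78479256 to 78495271) had 6, 3 and 2 counts in NGS vehicle (1.28, 0.691 and 0.475 CPM). It had 1, 0 and 4 counts in NGS ACSS2i. In C57BI6 vehicle it stood at 10.2, 5.83, 8.02 and 9.35 CPM, and in C57BI6 ACSS2i at 15.7, 26.7, 26.5 and 21.2 CPM. The hosts did not overlap, and neither did the C57BI6 treatment groups, whereas the NGS groups did. At the C57BI6 level the NGS libraries would have held 35.1 to 39.2 counts of Il2rb in vehicle and 64.1 to 90.9 in ACSS2i. The log2 fold change of C57BI6 over NGS was 3.46 ± 0.42 in vehicle (edgeR adjusted p = 1.91e-05) and 5.66 ± 0.47 in ACSS2i (adjusted p = 3.39e-07). In NGS ACSS2i the fitted size rests on 5 counts in all.

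With ACSS2i, Il2rb rose in C57BI6 by 1.37 ± 0.24 on the log2 scale (adjusted p = 0.0297). In NGS it was at -0.82 ± 0.78 (adjusted p = 0.570), and the difference of 2.19 ± 0.81 between the hosts did not pass (adjusted p = 0.278). Natural killer markers summed to 65.7 to 84.9 CPM in C57BI6 vehicle and 102 to 148 CPM in C57BI6 ACSS2i, and the B and plasma cell sum to 9.69 to 143 and 178 to 719 CPM. Their part in the rise of Il2rb and Il2rg was not tested. Klra4 gave most of the natural killer sum in both C57BI6 groups (means of 54.2 and 60.2 CPM). The call of Il2rb was lost without any 1 of C57BI6 vehicle 2, 3 or 4 or C57BI6 ACSS2i 2, 3 or 4 (adjusted p up to 0.144), and without the 3 muscle-rich C57BI6 libraries (0.130).

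Il2ra, the CD25 chain that raises the affinity for interleukin 2, had its highest levels in C57BI6 ACSS2i, and no comparison of it passed the test. Il2ra (ENSMUSG00000026770, protein-coding, chromosome 2, 11642807 to 11693193) was counted 8, 1 and 5 times in NGS vehicle and 4, 20 and 13 times in NGS ACSS2i (1.15, 7.03 and 3.22 CPM). It stood at 2.51, 1.59, 1.88 and 1.08 CPM in C57BI6 vehicle and at 5.49, 11.6, 9.34 and 5.32 CPM in C57BI6 ACSS2i. The C57BI6 groups did not overlap, and the NGS groups did. ACSS2i over vehicle was 2.10 ± 0.44 in C57BI6 (edgeR adjusted p = 0.0573) and 1.76 ± 0.69 in NGS (adjusted p = 0.154). Under the DESeq2 test, limma voom, no filter, a stricter filter or only the C57BI6 groups, or when NGS ACSS2i 1 or 2 was left out, the C57BI6 value of Il2ra passed. Without C57BI6 ACSS2i 2 its adjusted p was 0.257. Between the hosts, Il2ra was at 0.89 ± 0.63 in vehicle (adjusted p = 0.296), where the C57BI6 level would give 7.42 to 8.29 counts per NGS library. In ACSS2i it was at 1.23 ± 0.52 (adjusted p = 0.0717), which passed without NGS ACSS2i 2 (0.0175) and with the DESeq2 test (0.0449).

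Il7r, the alpha chain of the interleukin 7 receptor, was called between the hosts and not for ACSS2i. Il7r (ENSMUSG00000003882, protein-coding, chromosome 15, 9505788 to 9530176) stood at 12.3, 9.22 and 7.13 CPM in NGS vehicle and 8.89, 11.2 and 6.69 CPM in NGS ACSS2i. It stood at 16.7, 10.1, 21.5 and 20.6 CPM in C57BI6 vehicle and 18.1, 19.0, 14.2 and 18.6 CPM in C57BI6 ACSS2i. C57BI6 vehicle 2 fell within the NGS vehicle range, and the ACSS2i groups of the hosts did not overlap. C57BI6 was higher by 1.00 ± 0.27 in vehicle (log2, adjusted p = 0.0108) and by 1.11 ± 0.28 in ACSS2i (adjusted p = 0.00602). The vehicle call was lost without NGS vehicle 3 (0.0505) and with limma voom (0.0817). ACSS2i over vehicle was -0.05 in C57BI6 (95% interval -0.52 to 0.42, adjusted p = 0.999) and -0.16 in NGS (-0.84 to 0.52, adjusted p = 0.820). The gap between the hosts for Il7r was thus smaller than for Il2rg and Il2rb, at 0.998 against 3.33 and 3.46 in vehicle as fitted values, and the difference between these gaps was not tested.

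Il4ra and Il21r, the private chains of the interleukin 4 and interleukin 21 receptors, showed no call in any of the comparisons. Il4ra (ENSMUSG00000030748, protein-coding, chromosome 7, 125552120 to 125579474) ran from 134 to 178 CPM in NGS vehicle, 166 to 235 in NGS ACSS2i, 155 to 185 in C57BI6 vehicle and 192 to 239 in C57BI6 ACSS2i. Only the C57BI6 treatment groups of Il4ra did not overlap. ACSS2i over vehicle was 0.22 ± 0.13 in C57BI6 (adjusted p = 0.780) and 0.44 ± 0.15 in NGS (adjusted p = 0.112); the NGS value passed without NGS ACSS2i 1 (0.0230) and with the DESeq2 test. In vehicle, C57BI6 over NGS was 0.34 ± 0.14 for Il4ra (adjusted p = 0.0719), which passed with limma voom and without NGS vehicle 3 or NGS ACSS2i 1 (down to 0.0202). Il21r (ENSMUSG00000030745, protein-coding, chromosome 7, 125603429 to 125633570) ran from 6.91 to 17.8 CPM in NGS vehicle, 8.03 to 22.8 in NGS ACSS2i, 8.74 to 12.4 in C57BI6 vehicle and 13.3 to 18.9 in C57BI6 ACSS2i. The third library of each NGS group held the highest Il21r level of its group, and the C57BI6 treatment groups did not overlap. ACSS2i over vehicle for Il21r was 0.41 ± 0.28 in C57BI6 (adjusted p = 0.842) and 0.31 ± 0.37 in NGS (adjusted p = 0.667). The mean levels of Il21r in the vehicle groups were 11.1 ± 5.89 and 11.1 ± 1.70 CPM, with a 95% interval for the log2 difference of -0.54 to 0.86.

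Il15, the ligand made by macrophages, dendritic cells and stroma that sustains natural killer and memory T cells, fell with ACSS2i in NGS tumours. Il15 (ENSMUSG00000031712, protein-coding, chromosome 8, 82331632 to 82403222) had 26, 22 and 31 counts in NGS vehicle (5.53, 5.07 and 7.37 CPM) and 11, 3 and 10 counts in NGS ACSS2i (3.15, 1.05 and 2.48 CPM). It stood at 7.33, 9.48, 9.22 and 8.90 CPM in C57BI6 vehicle and at 9.90, 10.8, 12.5 and 12.0 CPM in C57BI6 ACSS2i. The treatment groups did not overlap in either host, with ACSS2i lower in NGS and higher in C57BI6. Il15 was at -1.42 ± 0.30 in NGS (edgeR adjusted p = 0.0270) and at 0.31 ± 0.18 in C57BI6 (adjusted p = 0.796). The difference between the hosts was 1.73 ± 0.35 (unadjusted p = 0.000214, adjusted p = 0.141). That difference passed with the DESeq2 test (0.00658) and without NGS ACSS2i 1 (0.0439). Leaving out NGS vehicle 1 or 3 or NGS ACSS2i 2 or 3 ended the NGS call of Il15 (up to 0.0732), as did a fit without the 3 muscle-rich C57BI6 libraries (0.0717), limma voom (0.183) and a fit of the NGS groups alone (0.270). Mast cell markers were also lower in the treated NGS libraries (100 to 211 CPM in NGS vehicle, 11.2 to 67.1 in NGS ACSS2i). Muscle markers were lower in the mean only, and their ranges overlapped (330 to 6869 CPM in NGS vehicle, 20.0 to 728 in NGS ACSS2i). The part of either list in the Il15 value was not tested.

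Il15ra encodes the chain that presents interleukin 15 to neighbouring cells, and its values lay in the same directions as those of its ligand. Il15ra (ENSMUSG00000023206, protein-coding, chromosome 2, 11705290 to 11734317) stood at 5.32, 2.30 and 4.52 CPM in NGS vehicle and 2.87, 1.41 and 1.24 CPM in NGS ACSS2i. It stood at 5.08, 3.66, 3.70 and 3.68 CPM in C57BI6 vehicle and 6.09, 5.80, 6.26 and 7.19 CPM in C57BI6 ACSS2i. The C57BI6 treatment groups did not overlap, and the NGS groups did. ACSS2i over vehicle for Il15ra was -1.18 ± 0.38 in NGS (adjusted p = 0.0942) and 0.59 ± 0.24 in C57BI6 (adjusted p = 0.514). The difference of 1.77 ± 0.45 did not pass with edgeR (adjusted p = 0.198) and passed with the DESeq2 test (0.0254). Without NGS ACSS2i 1 the NGS value of Il15ra passed (0.0260).

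The hosts were compared for both genes in each treatment. For Il15, C57BI6 over NGS was 0.70 ± 0.23 in vehicle (adjusted p = 0.0281) and 2.43 ± 0.27 in ACSS2i (adjusted p = 7.34e-06). The vehicle call of Il15 was lost without NGS vehicle 1 or 2 or C57BI6 vehicle 2, 3 or 4 (up to 0.106), and without the muscle-rich or the skin-rich libraries. For Il15ra the host values were 0.14 ± 0.29 in vehicle (adjusted p = 0.749) and 1.91 ± 0.34 in ACSS2i (adjusted p = 0.000512). Both ACSS2i calls held in every alternative fit that was run.

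Jak3, the kinase bound to the gamma chain, was the 1 member called lower in C57BI6 than in NGS tumours, under ACSS2i. Jak3 (ENSMUSG00000031805, protein-coding, chromosome 8, 71676296 to 71690575) had 20, 17 and 14 counts in NGS vehicle (4.25, 3.92 and 3.33 CPM) and 29 in each of the 3 NGS ACSS2i libraries (8.32, 10.2 and 7.19 CPM). It stood at 2.51, 2.81, 2.40 and 1.98 CPM in C57BI6 vehicle and 4.35, 3.93, 2.54 and 3.40 CPM in C57BI6 ACSS2i. The NGS treatment groups did not overlap, and neither did the hosts within either treatment. C57BI6 over NGS was -0.51 ± 0.26 in vehicle (adjusted p = 0.148) and -1.13 ± 0.25 in ACSS2i (adjusted p = 0.00229), and the latter call held in every alternative fit. ACSS2i over vehicle was 1.11 ± 0.28 in NGS (adjusted p = 0.0518) and 0.49 ± 0.22 in C57BI6 (adjusted p = 0.593). The NGS value of Jak3 passed with DESeq2 size factors, with the DESeq2 test (0.0138), with a stricter filter and without NGS ACSS2i 1 (0.0424). The levels of Jak3 are uncertain, because its exons share 404 bases with Insl3 on the same strand, all within 500 bases of the 3' end, where this assay reads. Insl3 itself was given 41 and 33 counts in NGS vehicle and ACSS2i and 230 and 316 counts in C57BI6 vehicle and ACSS2i. These are raw sums over groups of unlike depth, which held 13.2, 10.4, 74.4 and 77.6 M counts in the same order.

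Prkdc RNA was present in all 14 libraries, and none of its comparisons passed the test. Prkdc (ENSMUSG00000022672, protein-coding, chromosome 16, 15637866 to 15842235) had 71, 54 and 63 counts in NGS vehicle (15.1, 12.4 and 15.0 CPM) and 22, 48 and 47 counts in NGS ACSS2i (6.31, 16.9 and 11.7 CPM). It stood at 8.88, 10.3, 6.56 and 10.9 CPM in C57BI6 vehicle and 8.37, 8.55, 9.78 and 10.2 CPM in C57BI6 ACSS2i. The vehicle groups did not overlap, with NGS the higher, whereas the ACSS2i groups did. C57BI6 over NGS was -0.48 ± 0.24 in vehicle (95% interval -1.0 to 0.04, adjusted p = 0.142) and -0.19 ± 0.25 in ACSS2i (-0.73 to 0.36, adjusted p = 0.586). ACSS2i over vehicle was -0.05 ± 0.21 in C57BI6 (-0.51 to 0.41, adjusted p = 0.999) and -0.35 ± 0.28 in NGS (-0.94 to 0.25, adjusted p = 0.496). Across the alternatives the adjusted p of Prkdc was 0.0630 at the lowest, for the vehicle groups. Tumour cells and host cells both contribute to the RNA of a whole tumour, so these values do not separate the Prkdc of the host from that of the tumour.

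**Figure D3:**
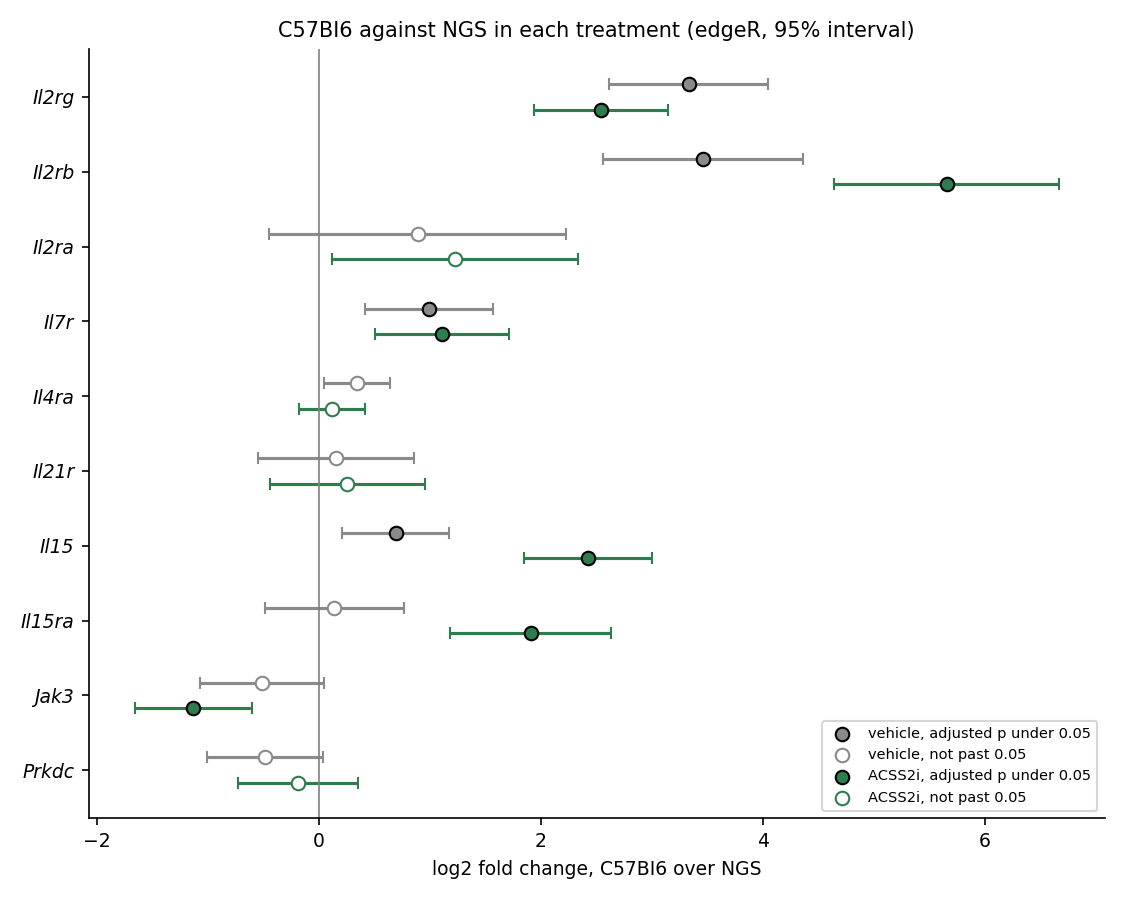
Log2 fold change of C57BI6 over NGS for each of the 10 genes in vehicle (grey) and ACSS2i (green) tumours, with the 95% interval of the edgeR fit as whiskers and filled points where the adjusted p was under 0.05. Il2rg and Il2rb lie farthest to the right in vehicle, Il15 and Il15ra are farther right in ACSS2i than in vehicle, and Jak3 and Prkdc lie left of 0.

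Counted over the 10 members, the host comparison in vehicle gave 4 calls, all higher in C57BI6, where 32.8% of all genes tested were called. The groups did not overlap for 4 members (Il2rg and Il2rb higher, Jak3 and Prkdc lower in C57BI6), against 41.5% of all genes. In ACSS2i, 6 members were called against 40.3% of all genes, with 5 higher and Jak3 lower, and 6 did not overlap against 44.9%. The count in vehicle thus lay near the share of all genes, and nothing is read from it about the members as a group. The median log2 fold change of the members was 0.52 in vehicle and 1.17 in ACSS2i, beside 0.01 and 0.06 for all genes.

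For ACSS2i in C57BI6, 2 of the 10 members rose and none fell, where 0.312% of all genes were called. The treatment groups did not overlap for 7 members, all higher with ACSS2i (Il2rg, Il2rb, Il2ra, Il4ra, Il21r, Il15 and Il15ra), against 7.05% of all genes in that direction and 8.94% in either. The median over the members was 0.45, beside -0.01 for all genes. For ACSS2i in NGS, 1 member rose (Il2rg) and 1 fell (Il15), where 2.69% of all genes were called. The groups did not overlap for 3 members (Il2rg and Jak3 higher, Il15 lower), against 18.8% of all genes, and the median was 0.07 beside -0.01. Without NGS ACSS2i 1, a skin-rich library, 6 members passed, with Il2ra (0.0472), Il4ra, Il15ra and Jak3 added to Il2rg and Il15. No member passed without NGS vehicle 1 or 3 or NGS ACSS2i 2. The host and treatment comparisons share their libraries, so their counts are not separate observations.

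For the difference between the ACSS2i effects of the hosts, 0 of 10 members passed with edgeR, where 0.0173% of all genes were called. At an unadjusted p under 0.05 there were 3 (Il2rb, Il15 and Il15ra). The DESeq2 test called 2 (Il15 and Il15ra), and limma voom called 0.

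**Figure D4:**
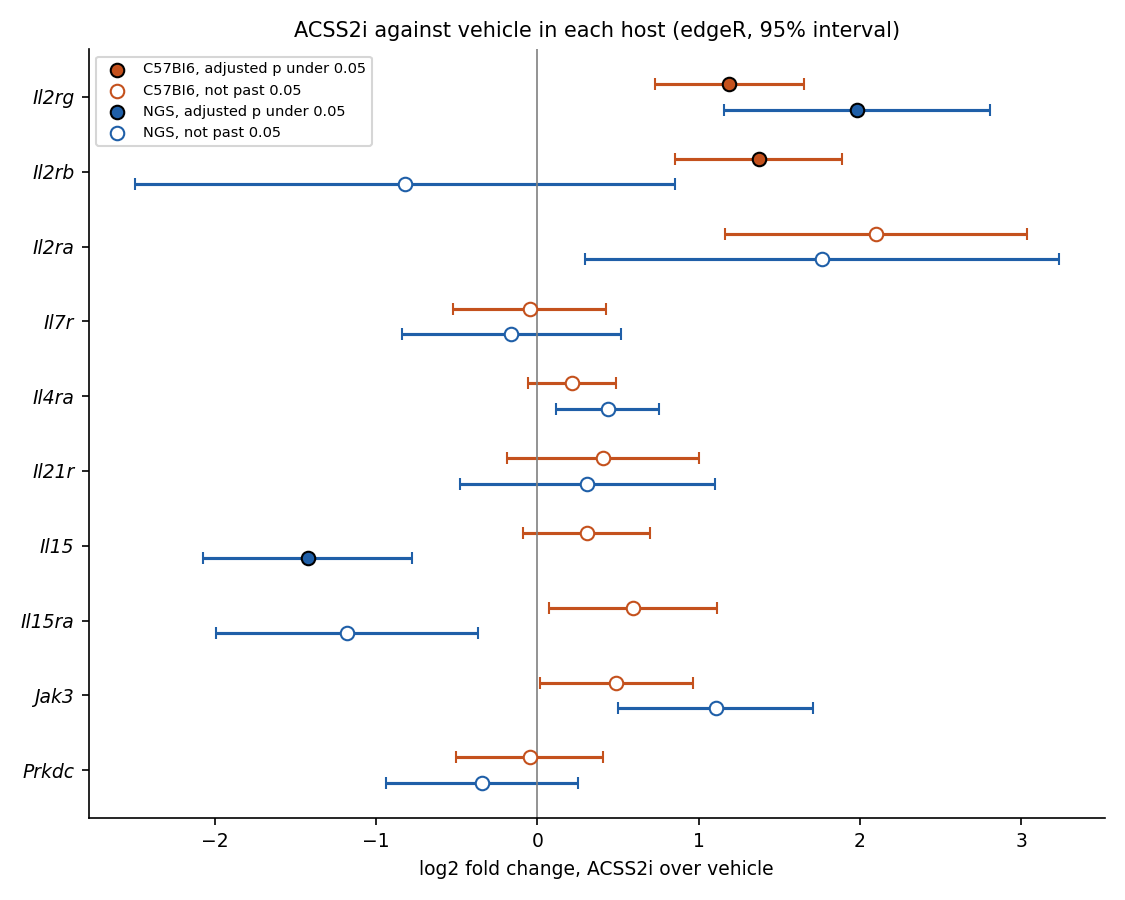
Log2 fold change of ACSS2i over vehicle for each of the 10 genes in C57BI6 (orange) and NGS (blue) tumours, with the 95% interval of the edgeR fit as whiskers and filled points where the adjusted p was under 0.05. Il2rg lies right of 0 in both hosts, Il2rb in C57BI6, while Il15 and Il15ra lie left of 0 in NGS and right of 0 in C57BI6.

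The other cytokines and receptor chains of the family gave no call for ACSS2i. Of the 11 listed, 7 were counted often enough to test, and Il4, Il9, Il21 and Il13 were not. With edgeR, 0 of the 7 passed in C57BI6 (0 at an unadjusted p under 0.05, and 0 with DESeq2 or limma voom). In NGS 0 passed as well (2 at an unadjusted p under 0.05, and 0 with either tool), and so for the difference (1 unadjusted, and 0 with either tool). The lowest p-values belonged to Crlf2, a chain of the receptor for the related cytokine TSLP, at 0.29 ± 0.14 in C57BI6 (adjusted p = 0.660) and 0.52 ± 0.18 in NGS (adjusted p = 0.119). Il13ra1, an interleukin 13 receptor chain, was at 0.09 ± 0.15 in C57BI6 (adjusted p = 0.975), and Tslp at -1.24 ± 0.46 in NGS (adjusted p = 0.134). Without NGS ACSS2i 1 the NGS value of Crlf2 passed (0.0421), and so without the skin-rich libraries (0.0207). The median of the list was 0.09 in C57BI6, and 0.23 in NGS over the 6 genes other than Il9r, beside -0.01 for all genes in each host. For the difference between the hosts, Tslp was at 1.26 ± 0.56 (adjusted p = 0.342) and Crlf2 at -0.23 ± 0.23 (adjusted p = 0.690), and the median over the same 6 genes was -0.04 beside 0.02.

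Between the hosts, Il9r stood out in this list. Il9r, the private chain of the interleukin 9 receptor, had 0 counts in all 6 NGS libraries, and 66 counts in the C57BI6 vehicle and 72 in the C57BI6 ACSS2i libraries together. Against a floor of 3 counts over each NGS group, Il9r was at least 3.92-fold higher in C57BI6 vehicle and at least 3.21-fold higher in C57BI6 ACSS2i (edgeR adjusted p = 0.00324 and 0.00400). Crlf2 was higher in C57BI6 by 0.70 ± 0.16 in vehicle (adjusted p = 0.00440) and by 0.47 ± 0.16 in ACSS2i (adjusted p = 0.0311). The ACSS2i call of Crlf2 was lost without NGS ACSS2i 1 or 3 or C57BI6 ACSS2i 1 or 2 (up to 0.124). The same held without the muscle-rich (0.116) or the skin-rich libraries (0.0761). Tslp was lower in C57BI6 vehicle, at -1.03 ± 0.37 (adjusted p = 0.0440), a call lost without any 1 of NGS vehicle 1 or 3, C57BI6 vehicle 1, 2 or 4, and likewise C57BI6 ACSS2i 1, 3 or 4 (up to 0.168). It was also lost with no filter (0.111), with only the vehicle groups fitted (0.0634), and without the muscle-rich (0.134) or the skin-rich libraries (0.163). Counts over the list were thus 2 higher and 1 lower of 7 in vehicle and 2 higher and 0 lower in ACSS2i, beside 32.8% and 40.3% of all genes called. The medians were 0.27 and 0.23, with Il9r at its bound, beside 0.01 and 0.06.

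All 17 genes of the JAK-STAT relay downstream of the gamma chain were tested. In C57BI6, 0 of 17 passed for ACSS2i with edgeR, with 3 at an unadjusted p under 0.05, 3 called by DESeq2 and 3 by limma voom. Cish, a feedback inhibitor induced by STAT5, was at 0.86 ± 0.19 (adjusted p = 0.0794). Cish went from 7.49, 5.62, 5.89 and 6.91 CPM in C57BI6 vehicle to 13.2, 14.2, 9.78 and 12.1 CPM in ACSS2i, and the groups did not overlap. Cish passed with DESeq2, limma voom, a stricter filter or only the C57BI6 groups, and without NGS ACSS2i 1. The list median was 0.15 beside -0.01 for all genes.

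In NGS, 1 of the 17 relay genes rose and 1 fell with ACSS2i, where 2.69% of all genes were called. Ptpn6, the phosphatase SHP-1 of blood cells, rose by 0.68 ± 0.14 (adjusted p = 0.0270), and Ptpn2, a phosphatase that acts on JAK1 and JAK3, fell at -0.48 ± 0.12 (adjusted p = 0.0438). The call of Ptpn6 was lost without NGS vehicle 1, 2 or 3 or NGS ACSS2i 3 (up to 0.0803), and that of Ptpn2 without any 1 of the 14 libraries (up to 0.118). Both were lost with limma voom and with only the NGS groups fitted, and Ptpn2 also with the DESeq2 size factors, with no filter and without the muscle-rich or the skin-rich libraries. The median was -0.14 beside -0.01. For the difference between the hosts 0 of 17 passed (5 at an unadjusted p under 0.05, 1 with DESeq2, 0 with limma voom). Cish was at 1.43 ± 0.36 (adjusted p = 0.197; 0.0404 with DESeq2) and Ptpn2 at 0.43 ± 0.15 (adjusted p = 0.257), and the median was 0.34 beside 0.02.

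Between the hosts, 5 of the 17 relay genes were higher and 1 lower in C57BI6 vehicle, where 32.8% of all genes were called, and 10 were higher and 1 lower in ACSS2i, where 40.3% were. In vehicle, Socs2 (1.20 ± 0.16, adjusted p = 3.56e-05), a feedback inhibitor, and Pim1 (1.67 ± 0.29, adjusted p = 0.000531), a kinase induced by STAT5, had the lowest p-values. Stat3 was higher by 0.57 ± 0.11 (adjusted p = 0.00107) and Cish by 0.77 ± 0.24 (0.0245). Jak1, the kinase that binds the private chains, was lower at -0.39 ± 0.13 in vehicle (adjusted p = 0.0270) and -0.66 ± 0.13 in ACSS2i (adjusted p = 0.000858). In ACSS2i, Cish reached 2.20 ± 0.27 (adjusted p = 1.64e-05), Pim1 2.54 ± 0.31 (2.10e-05), Socs2 1.27 ± 0.16 (2.10e-05), Stat3 0.76 ± 0.11 (9.65e-05) and Ptpn2 0.61 ± 0.11 (0.000507). The vehicle call of Cish ended on leaving out NGS vehicle 2 or 3 or C57BI6 vehicle 1 (up to 0.0868), with limma voom (0.0726) and without the muscle-rich libraries (0.0944). The list medians were 0.15 and 0.66, beside 0.01 and 0.06.

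Of the 14 genes listed with Prkdc for end joining and V(D)J recombination, 12 were tested, and Rag1 and Rag2, the recombinase genes, were not. With ACSS2i in C57BI6, 0 of 12 passed (0 at an unadjusted p under 0.05, 0 with DESeq2 and 0 with limma voom), and the median was 0.01 beside -0.01. Dntt, the template-free polymerase of V(D)J joining, was at 1.94 ± 1.04 (adjusted p = 0.734) on 3 counts in vehicle, and Dclre1c, the Artemis nuclease, at 0.38 ± 0.23 (adjusted p = 0.800). In NGS, Lig4, the ligase of end joining, fell. It stood at 14.3, 14.1 and 16.2 CPM in NGS vehicle and at 6.02, 8.78 and 5.20 CPM in NGS ACSS2i, without overlap. In C57BI6, Lig4 lay between 10.2 and 12.8 CPM under vehicle and between 11.5 and 13.3 CPM under ACSS2i.

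The fitted change of Lig4 in NGS was -1.22 ± 0.20 (edgeR adjusted p = 0.00927), and it passed without each of the 14 libraries in turn (up to 0.0372), but not with limma voom or with only the NGS groups fitted. It was the 1 call of 12, beside 2.69% of all genes, and the list median was -0.08 beside -0.01. For the difference between the hosts, 0 of 12 passed with edgeR (2 at an unadjusted p under 0.05, 1 with DESeq2, 0 with limma voom). Lig4 was at 1.29 ± 0.24 (edgeR adjusted p = 0.115, and 0.00130 with DESeq2). Xrcc6, the Ku70 subunit of the Ku dimer that recruits the Prkdc product to DNA ends, was at -0.54 ± 0.21 (edgeR adjusted p = 0.296). The list median was 0.26 beside 0.02.

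Between the hosts in vehicle, 2 of the 12 end joining genes were higher in C57BI6 and 1 was lower, where 32.8% of all genes were called, with a median of -0.12 beside 0.01. Aplf, a scaffold of end joining, was higher by 1.06 ± 0.25 (adjusted p = 0.00473), and Tdp2, which removes topoisomerase from DNA ends, by 1.13 ± 0.30 (adjusted p = 0.0103). Dntt was lower (adjusted p = 0.0480) on 7 counts in the NGS and 3 in the C57BI6 vehicle libraries, and this call ended (up to 0.204) on leaving out replicate 1 or 3 of either NGS group, C57BI6 ACSS2i 1 or 4, or C57BI6 vehicle 1, 2 or 3, and with limma voom, no filter or no skin-rich libraries. In ACSS2i, 4 were higher and 1 lower, where 40.3% of all genes were called, with a median of 0.08 beside 0.06. Lig4 (1.02 ± 0.18, adjusted p = 0.000503), Tdp2 (1.60 ± 0.33, 0.00150) and Aplf (1.00 ± 0.26, 0.00654) were higher, and Xrcc6 was lower at -0.58 ± 0.15 (0.00609). Xrcc5, the Ku80 subunit, was higher by 0.47 ± 0.18 (adjusted p = 0.0494), a call lost without any 1 library (up to 0.194) except NGS vehicle 1, NGS ACSS2i 1 or C57BI6 ACSS2i 4. The call was also lost with the DESeq2 size factors, limma voom, no filter, a stricter filter, only the ACSS2i groups fitted and without the muscle-rich libraries.

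**Figure D5:**
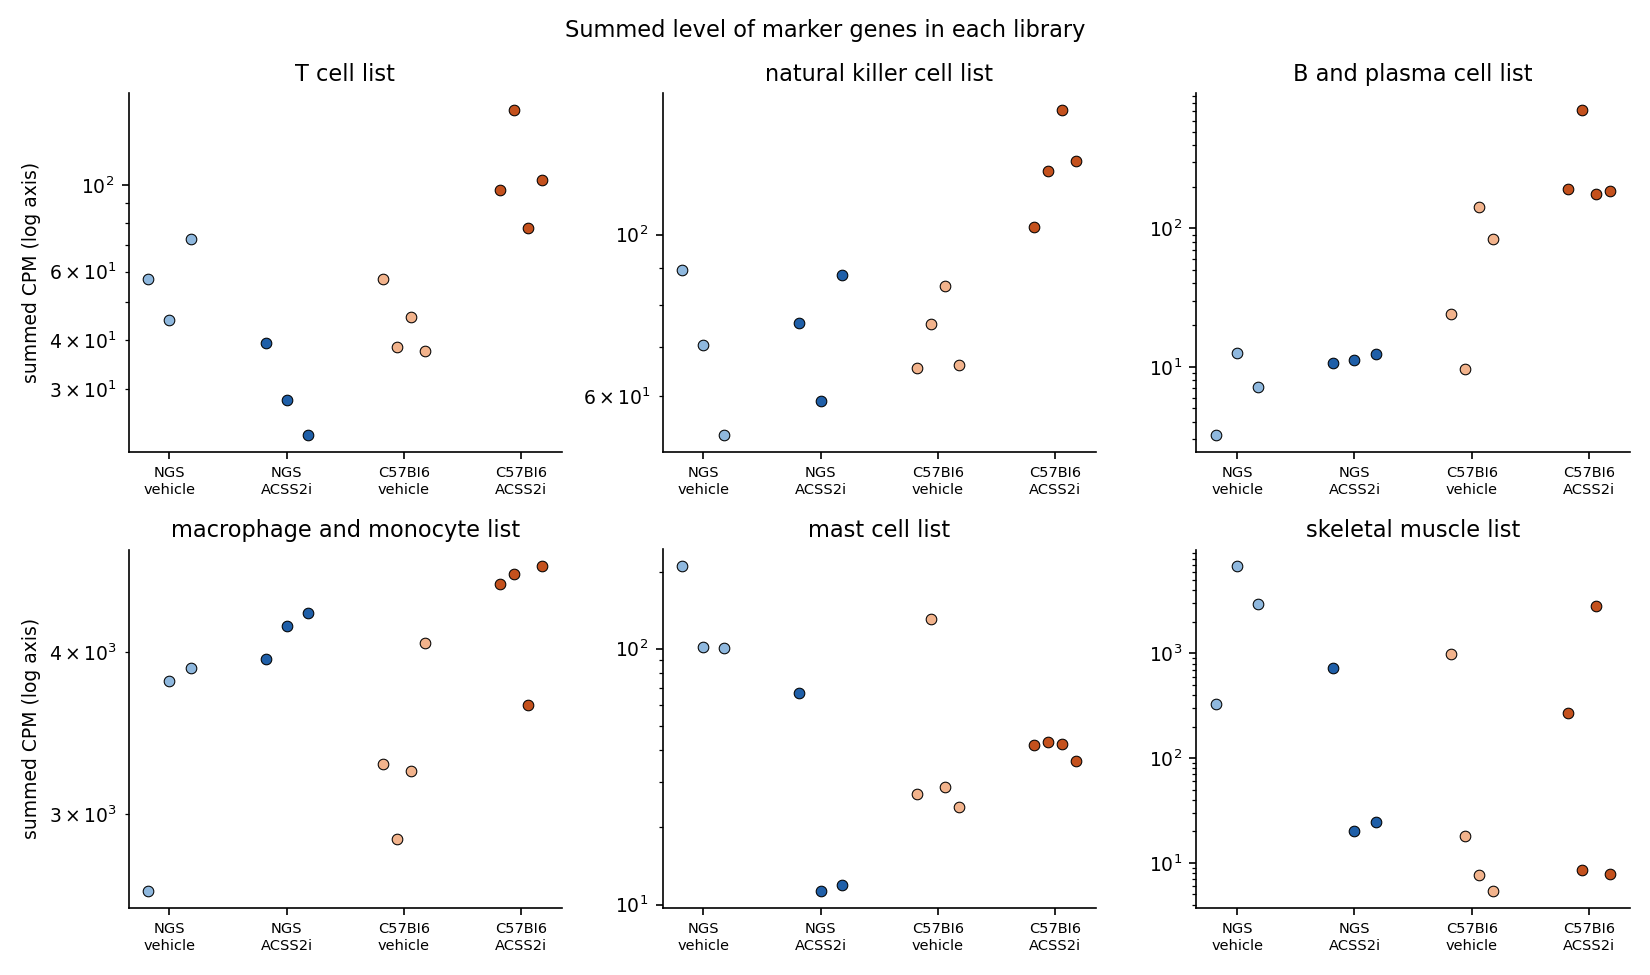
Summed level of the marker genes of 6 cell types in each library, in CPM on log axes, with 1 point per library and the 4 groups side by side. The T cell, natural killer and B and plasma cell sums are highest in C57BI6 ACSS2i, the macrophage sums lie between 2613 and 4662 CPM in all groups, and the muscle sums spread widely within groups.

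Across the 8 C57BI6 libraries, the genes with the highest correlation to each member were listed. The measure was Pearson's correlation of log2(CPM + 0.5), over 9943 genes with a mean of 5 CPM or more. The points share library, depth and the treatment split, so the values are a description. Picking the highest of so many correlations over 8 points gives high values for unrelated genes too, and no baseline for this was computed. Il2rg was followed most closely by Entpd1, the ectonucleotidase CD39 (0.995), Trim12a (0.989) and H2-Q6, an MHC class I gene (0.988). Il2rb was followed by Ifi204, an interferon-induced gene (0.993), Ctsw, a cathepsin of cytotoxic lymphocytes (0.991), and Il18bp, the binding protein of interleukin 18 (0.989). Il2ra was followed by Plac8 (0.992), Nt5c3 (0.987) and Psme2, a proteasome activator induced by interferon (0.984). For Il15 the closest were Ifit1 (0.975) and Ifit3b (0.948), both interferon-induced, and Map6 (0.946). For the other members the highest values were 0.941 for Il7r (Xkr8), 0.961 for Il4ra (Calhm2), 0.987 for Il21r (Htt), 0.994 for Il15ra (Wdr37), 0.957 for Jak3 (Rnf181) and 0.970 for Prkdc (Cpa6).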

How the data were processed

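The authors deposited whole-number counts per gene for 14 libraries made with the QuantSeq 3' mRNA kit of Lexogen from polyadenylated tumour RNA, per the labels' protocols. Per the submitters' processing notes they used build mm10, RSEM 1.2.3 and DESeq2; no role is stated, and the aligner and annotation are not given in the sources used here. If the counts are RSEM estimates, they were rounded before deposit. Symbols and positions came from GENCODE M21 (51596 of 51789 genes matched). Promoters came from RefSeq (GRCm38.p6).

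Counts were used as deposited. CPM scales counts to the library total. Genes were kept by filterByExpr (17294), scaled by TMM and tested with edgeR 4.0.16 (limma 3.58.1, R 4.3.3), by the quasi-likelihood test in 1 model of the 4 groups, two-sided, with Benjamini-Hochberg adjustment over all genes tested and a threshold of 0.05. Alternatives were DESeq2 1.42.0 (size factors, test), limma voom with sample weights, no filter, a stricter filter (10 counts in 10 libraries), a replicate block, only the 2 groups compared, and leaving out each library. After the data were seen, fits without the 3 muscle-rich C57BI6 or the 2 skin-rich NGS libraries were added, as was the test of the Il2rg to Ptprc ratio by treatment. The fit was tested on simulated data. Figures and ratios used Python 3.11.15.

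Chi-square per degree of freedom was 6.62 to 25.4 over the 18 pairs of libraries within groups, above counting noise, so none was taken as a repeat deposit. A group with 0 counts allows up to 3 counts, or 0.226, 0.289, 0.0403 and 0.0387 CPM in NGS vehicle, NGS ACSS2i, C57BI6 vehicle and C57BI6 ACSS2i. No molecular identifiers are described, so floors cover counting error only. The members, the gene lists and the tests were chosen with earlier results of these data known. All members are named. From each pathway list, up to 5 genes past the threshold with the smallest p are named, or, where none passed, the 2 with the smallest p; some genes that this rule picks are not reported here. For likeness, the 3 genes with the highest correlation were chosen and fewer are printed for some members; predicted genes and pseudogenes were left out.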

Additional observations from a re-analysis of the deposited data

Results flagged for a closer look

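Il15ra in C57BI6 vehicle replicate 1 stood at 5.08 CPM, far from the other 3 libraries of its group at 3.66 to 3.70 CPM. The gap was 0.970 of the group's range, above Dixon's 95% critical value of 0.829 for 4 samples. Over the 22 groups of 4 that were looked at, chance flags about 1 in 20. That library also had the highest muscle marker sum of its group (995 CPM), whose part in the value was not tested.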

How the results depend on the processing

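No called value changed sign. The counts of genes and of members called depended on the fit. For ACSS2i in C57BI6, the 54 genes became 339 with the DESeq2 test, 429 with limma voom, 112 with no filter, 9 with the replicate block, 266 with only the 2 groups compared, 21 without the muscle-rich and 117 without the skin-rich libraries, and 15 to 122 when each library was left out. The 2 members became 0 with the replicate block and 0 without the muscle-rich libraries (0 to 3 leaving out 1 library). For ACSS2i in NGS, the 466 genes became 1574 with DESeq2, 27 with limma voom, 750 with a stricter filter, 254 with the block, 9 with only the 2 groups, 120 without the muscle-rich and 1073 without the skin-rich libraries (118 to 1743 leaving out 1). The 2 members became 4 with DESeq2, 0 with limma voom, 0 with only the 2 groups and 1 without the muscle-rich libraries (0 to 6). For the difference, the 3 genes became 283 with DESeq2, 0 with limma voom, 7 with no filter, 1 without the muscle-rich and 34 without the skin-rich libraries (1 to 62), and the 0 members became 2 with DESeq2 (0 to 1). It could not be fitted with only 2 groups. Between the hosts, 5666 genes in vehicle became 3759 with a stricter filter (4608 to 6715), and 6961 in ACSS2i became 3969 without the muscle-rich libraries (5949 to 7237). Leaving out 1 library gave 3 to 5 members in vehicle and 6 to 7 in ACSS2i, and the stricter filter gave 5 in ACSS2i. The host difference of Il2rg per 100 counts of Ptprc stayed between 19.3 and 21.5, and its treatment difference between 9.62 and 11.9 in C57BI6 and 3.38 and 4.65 in NGS. The causes were not tested. With the replicate block the adjusted p was above the threshold for Il2rg (0.0998) and Il2rb (0.131) in C57BI6, Ptpn6 (0.0614) and Ptpn2 (0.0808) in NGS, and between the hosts for Il15 (0.0512), Tslp (0.0839) and Dntt (0.0926) in vehicle and Crlf2 (0.0613) in ACSS2i.

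Whether equal replicate numbers mark pairs is not settled here, because correlations over so few libraries cannot exclude a pairing. Deviations from the group means correlated in C57BI6 at -0.137 to 0.155 for the same number and at -0.268 to 0.349 otherwise. In NGS the values were -0.002 to 0.0946 and -0.124 to 0.0812. The median log2 fold change of all genes stayed within 0.1 of 0 except for C57BI6 against NGS in ACSS2i, where it was 0.16 with no filter, 0.11 without NGS ACSS2i 1 and 0.11 without the skin-rich libraries.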
